A study of Mus musculus with 9 samples.

Results

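The comparison described here set uteri that had lost both Mig-6 and Erbb2 against control uteri of mice on gestation day 3.5 (GD 3.5), the day before the embryo attaches. It used 6 of the 9 Affymetrix mouse genome arrays of the study, 3 carrying the label Mig-6 d/d Erbb2 d/d, here called the double knockout, beside 3 labelled control, and covered 45037 probe sets, of which 34945 name 1 gene, for 18193 genes in all. The other 3 arrays were of Mig-6 d/d uteri. They entered the estimate of the spread, and their values are given beside those of some of the named genes. In the double knockout both floxed genes were deleted by a Cre recombinase knocked into the progesterone receptor locus (Pgr cre/+), so the deletion is limited to cells that have expressed that receptor and these mice carry 1 Pgr allele with the insertion. Mig-6 d/d mice carry the same Cre and lack Mig-6 alone. Control mice carry the floxed alleles (Mig-6 f/f, alone or together with Erbb2 f/f) without Cre, and which array came from which control genotype is not given. All mice were on a mixed C57BL/6 and 129P2/OlaHsd background. The labels give an age of 2 weeks, whereas the methods describe adult mice. Several mice of each genotype were pooled for RNA. The sources do not tell if every array of a group had a pool of its own, and the p-values below therefore measure spread between arrays that may be technical. In RNA from a whole uterus, fewer cells of a type and less RNA per cell cannot be told apart.

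Mig-6 (gene symbol Errfi1) is an adaptor protein that binds the kinase domain of ERBB receptors and restrains them, and it is itself induced by growth factor signalling, which makes it a feedback inhibitor. Erbb2 encodes the ERBB receptor without a known ligand, which signals as the partner of Egfr, Erbb3 or Erbb4. In the uterus before implantation, estrogen drives division of the luminal epithelium and progesterone, acting through its receptor in epithelium and stroma, stops that division and opens the period in which an embryo can attach.

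The deleted genes were read first. Errfi1 was read at 454, 564 and 286 intensity units in the control arrays and at 76.05, 29.8 and 40.3 in the double-knockout arrays. The groups did not overlap, and the log2 difference was -3.22 ± 0.90 (SE, n = 3 per group). In limma across all probe sets and all 9 arrays it was not called (adjusted p = 0.303). Among the Mig-6 d/d arrays Errfi1 stood at 15.1, 15.96 and 255, so 1 of these arrays was close to the lowest control array, and the shared estimate of the spread was wide. Without Mig-6 d/d replicate 3 the same difference had an adjusted p of 0.00627, and with only the 6 arrays compared, 0.0205. A dimmer Errfi1 probe set showed control values of 65.1, 59.5 and 33.7 and double-knockout values of 20.7, 12.8 and 15.7 (log2 difference -1.66, adjusted p = 0.273). Both probe sets placed the double knockout below every control array. Erbb2 had 1 probe set, with 29.4, 36.7 and 45.7 in control and 18.3, 9.88 and 18.4 in the double knockout. These values did not overlap either, with a log2 difference of -1.30 ± 0.24 that missed the threshold (limma, adjusted p = 0.0649), and the Mig-6 d/d arrays held 46.5, 39.5 and 44.5.

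The other receptors of the family and the steroid receptors did not pass the test. Egfr, the receptor of epidermal growth factor, ranged over 93.5 to 196 in control and 175 to 244 in the double knockout (log2 difference 0.50, 95% interval -0.03 to 1.04, adjusted p = 0.686). Erbb3, a neuregulin receptor with little kinase activity of its own, lay at 32.3 to 91.3 and 47.6 to 71.3, so the double-knockout arrays fell inside the control range (95% interval -0.68 to 0.71). Erbb4 was read below 4 units on every array. Pgr, the progesterone receptor, had control values of 1065, 1107 and 1613 and double-knockout values of 729, 791 and 986, which did not overlap (log2 difference -0.58, 95% interval -1.02 to -0.14, adjusted p = 0.448). Arrays of these groups did not overlap for 11.8% of all genes. The Mig-6 d/d arrays held 873, 798 and 588 for Pgr, also below every control array. Double knockout minus Mig-6 d/d was 0.16 (limma, adjusted p = 0.748). Esr1, the main estrogen receptor of the uterus, had a log2 difference of -0.28 (95% interval -0.58 to 0.02, adjusted p = 0.7).

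Few genes were called as different between the 2 genotypes. A probe set was called when its Benjamini-Hochberg adjusted p in limma was under 0.05 and it changed by more than 1.5-fold. By this rule 89 probe sets increased and 72 decreased in double-knockout uteri, which is 0.198% and 0.16% of the 45037 tested, together 0.357%. With each gene read at its brightest probe set, 38 genes increased (0.209% of 18193) and 36 decreased (0.198%), together 0.407%. All 161 called probe sets had control and double-knockout arrays that did not overlap, which was true of 11.7% of all probe sets (11.8% of genes). The calls rest on these same values, so their separation is no further evidence for them. For 14548 of the 18193 genes the 95% interval of the difference lay within 1.5-fold in both directions. The median log2 difference over all genes was 0.01. The median size of a called log2 difference was 1.18 for increased and 1.05 for decreased genes, and the median control intensity was 8.34 and 64.8. Of the 38 increased genes 29 changed by more than 2-fold and 18 had a control mean at or below 8.07 units, the median of all values. Of the 36 decreased genes 19 changed by more than 2-fold and none had a control mean that low. Detection calls were not used, so signals this low were not shown to be above background, and a difference that starts from them is that of the intensities as read, not a measured ratio of transcripts. An unadjusted p under 0.05, used below to describe gene lists, was found for 1446 genes (7.95%). Leaving out 1 of the 9 arrays at a time gave 86 to 156 called probe sets, and 29 of the 74 called genes were called without each of them. Increased probe sets fell to 53 without double-knockout replicate 1. Decreased probe sets fell to 33, 30 and 33 without double-knockout replicates 1, 2 and 3 in turn, and to 44 both without control replicate 1 and without control replicate 3. Fitting only the 6 arrays compared gave 90 calls in all.

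**Figure D1:**
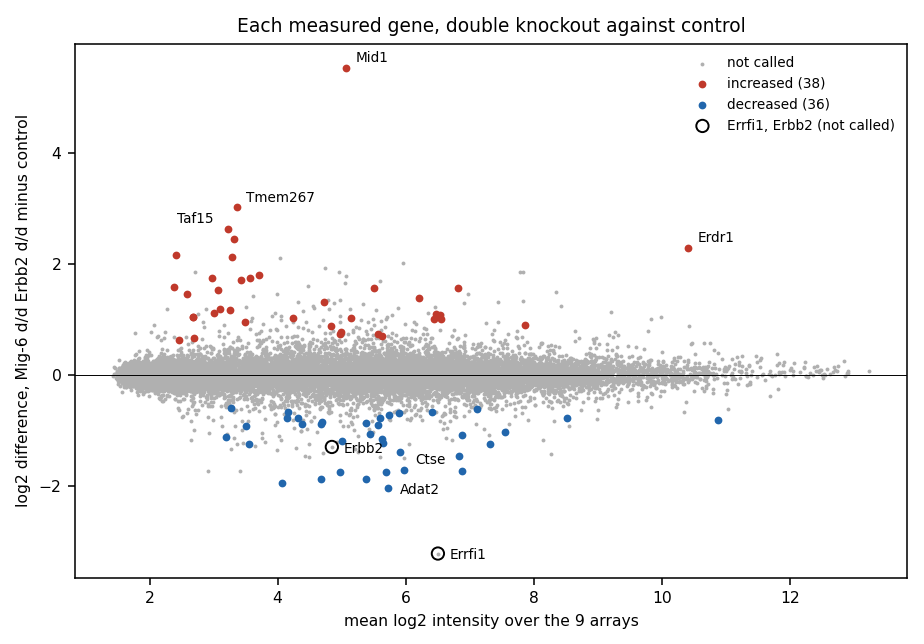
Log2 difference between double knockout and control (vertical axis) against the mean log2 intensity over the 9 arrays (horizontal axis), 1 point per gene at its brightest probe set. The 38 increased genes (red) reach a log2 difference of 5.53 at Mid1 and lie mostly at low intensity, the 36 decreased genes (blue) lie between -0.60 and -2.04, and Errfi1 and Erbb2 (open circles) were not called.

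The largest difference was on the X chromosome. Mid1, which encodes a microtubule-binding ubiquitin ligase and spans the boundary of the pseudoautosomal region in mice, was read at 8.04, 8.62 and 8.36 in control, at 369.6, 320.4 and 478 in the double knockout and at 8.9, 19.3 and 9.35 in Mig-6 d/d. The log2 difference in intensity from control was 5.53 ± 0.26 (limma, adjusted p = 1.1e-05). Every double-knockout array was above 300 units and every other array under 20, with the control arrays at about the median of all values and so not shown to be above background. The increase was seen at 1 of its 3 probe sets, the other two being at 4.3 to 5.7 and 3.34 to 3.77 in the double knockout and at 4.31 to 5.59 and 3.12 to 3.72 in control. Erdr1, named for erythroid differentiation and placed at the same end of the X chromosome, rose from 688, 856 and 989 to 4188, 3653 and 4417, with Mig-6 d/d at 798, 723 and 700.3 (log2 difference 2.29 ± 0.14, adjusted p = 7.91e-05). It was the brightest of the increased genes, its probe set is of the kind (_x_at) whose probes can also match other transcripts, and its second, dim probe set was not called (adjusted p = 0.687). Between them lies G530011O06Rik, a transcript without a known role, at 4.39, 7.11 and 5.55 in control and 43.7, 17.2 and 37.4 in the double knockout (log2 difference 2.45, adjusted p = 0.00848). In the order of RefSeq genes on the X chromosome these are 3 of the last 4 of 617 measured genes, and the remaining one, 4933400A11Rik, had a log2 difference of 0.12.

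A further 3 runs of called neighbours were found, where a run is at least 3 called genes each within 5 measured genes of the next. On chromosome 7 the run was formed by Trim34a, Trim12a and Trim30d, members of a cluster of TRIM ubiquitin ligases that is known for antiviral defence. Trim34a was at 6.5, 5.72 and 5.95 in control and 20.4, 27.9 and 32.4 in the double knockout (log2 difference 2.13 ± 0.15, adjusted p = 0.000279). Trim12a was at 3.42, 3.08 and 3.01 and 15.98, 10.9 and 16.4 (log2 difference 2.17 ± 0.19, adjusted p = 0.000986). Trim30d was at 3.58, 4.49 and 4.23 and 10.3, 9.9 and 14.1 (log2 difference 1.47 ± 0.14, adjusted p = 0.00204). All 3 rose from control signals under 7 units, each at 1 of its 2 probe sets, and the Mig-6 d/d arrays stood at 5.59 to 6.29, 2.87 to 4.33 and 4.53 to 4.79. The second Trim34a probe set went the other way, from 9.96, 6.46 and 9.08 to 5.8, 5.37 and 4.62 (log2 difference -0.67, adjusted p = 0.212), and was not called. Neighbours of the 3 genes in the run, Trim5, Trim12c and Trim30a, had log2 differences of 0.41, -0.96 and 0.63 and were not called. Whether a probe set reads more than 1 gene of this family was not tested.

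The promoters of these 3 genes are shown because the genes lie together and each rose at the probe set by which it was read. That choice rests on all 9 arrays, which include the raised double-knockout arrays. On the control arrays alone the other Trim34a probe set was the brighter, and it was lower in the double knockout without being called. RefSeq (GRCm38.p6) gives 250 bases before and 50 after the start, written 5′ to 3′ along the gene, and capitals mark the letters GAAANNGAA on either strand, a pair of sites of the kind found in interferon-stimulated genes.
Trim34a (chr7:104244207-104244506, plus strand): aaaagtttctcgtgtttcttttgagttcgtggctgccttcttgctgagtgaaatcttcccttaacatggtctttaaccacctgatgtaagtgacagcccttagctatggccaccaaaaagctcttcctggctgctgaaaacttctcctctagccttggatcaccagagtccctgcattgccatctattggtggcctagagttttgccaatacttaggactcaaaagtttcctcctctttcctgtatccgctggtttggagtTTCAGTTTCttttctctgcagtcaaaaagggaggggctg
Trim12a (chr7:104315446-104315745, minus strand): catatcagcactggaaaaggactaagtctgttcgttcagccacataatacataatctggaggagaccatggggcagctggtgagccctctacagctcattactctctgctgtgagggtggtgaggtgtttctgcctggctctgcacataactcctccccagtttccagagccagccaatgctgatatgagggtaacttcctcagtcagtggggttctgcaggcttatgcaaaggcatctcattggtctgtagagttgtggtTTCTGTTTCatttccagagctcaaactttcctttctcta
Trim30d (chr7:104507800-104508099, minus strand): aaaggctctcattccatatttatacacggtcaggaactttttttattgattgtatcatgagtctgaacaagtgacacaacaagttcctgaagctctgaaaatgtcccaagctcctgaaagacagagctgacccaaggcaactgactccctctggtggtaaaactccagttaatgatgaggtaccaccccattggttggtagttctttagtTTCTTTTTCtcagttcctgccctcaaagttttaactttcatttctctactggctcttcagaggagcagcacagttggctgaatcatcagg
Each of the 3 held 1 match, on the strand opposite to the gene. Over all 32851 promoters of this length 8.56% held at least 1 match, as did 8 of the 33 promoters listed for increased genes and 2 of the 28 listed for decreased genes. The 8 include the 3 promoters shown, and the 33 promoters belong to 28 genes. Of the other letters searched on both strands, TTCNNNGAA was in 8.3% of all promoters, 4 of the 33 and 2 of the 28 promoters of decreased genes. In the same order TGANTCA was in 7.81%, 3 and 2, and CCAAT in 37.4%, 16 and 9. TATAAA was in 13.6%, 1 and 2, and TGACGTCA in 1.79%, 1 and 0. A match is a description of the letters and was not tested. The list of 22 measured interferon response genes had no called gene and a median log2 difference of -0.21 (range -0.67 to 0.37).

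**Figure D2:**
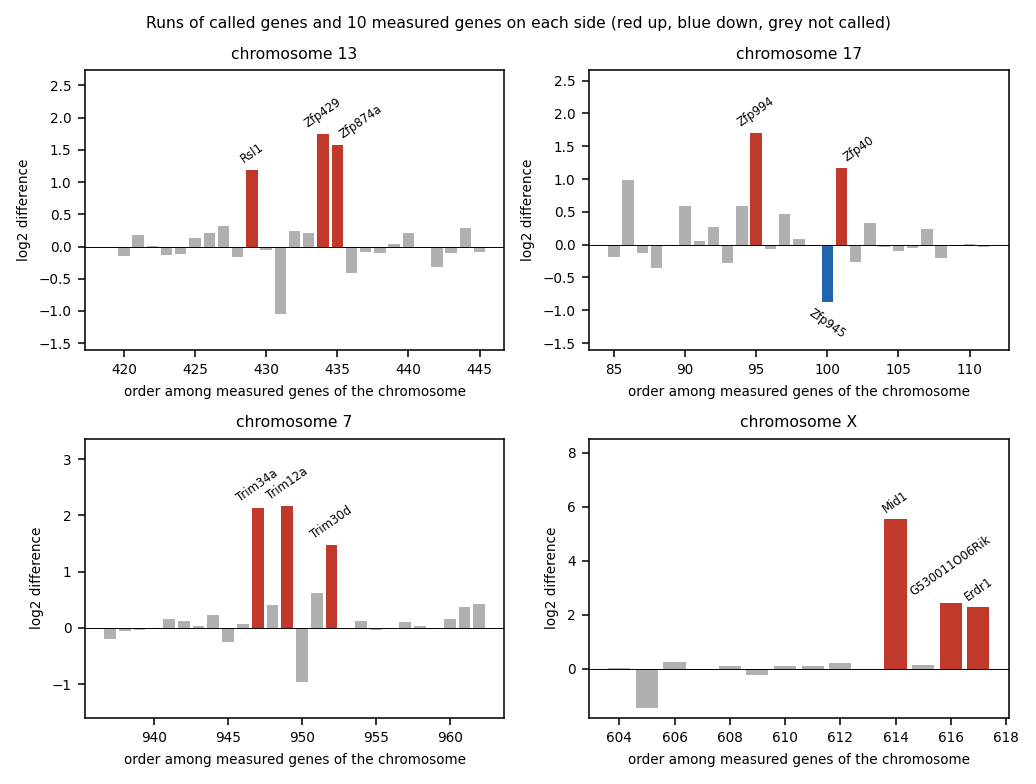
Log2 difference between double knockout and control for the genes of each run and 10 measured genes on each side, in their order along the chromosome (horizontal axis, rank among measured genes). Increased genes are red, decreased genes blue and genes not called grey in each panel. The grey neighbours include Zfp458 at -1.05 and Trim12c at -0.96, and on the X chromosome the red genes are 3 of the last 4.

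The remaining runs consisted of zinc finger genes. On chromosome 13, Rsl1, Zfp429 and Zfp874a increased. All 3 encode proteins of the KRAB zinc finger type, which bind DNA and repress transcription, and Rsl1 is known as a repressor of sex-limited genes in liver. Zfp429 was at 6.8, 4.78 and 4.65 in control and 16.1, 16.4 and 21.6 in the double knockout (log2 difference 1.74, adjusted p = 0.00357). Zfp874a was at 3.99, 3.91 and 3.45 and 11.4, 13.9 and 9.12 (log2 difference 1.58, adjusted p = 0.00142). Rsl1, read by a probe set of the _x_at kind, was at 8.11, 5.62 and 5.07 and 12.99, 16.6 and 12.8 (log2 difference 1.19, adjusted p = 0.0199), and its call was lost without control replicate 2 (adjusted p = 0.0698) or 3 (0.0629) and without double-knockout replicate 1 (0.0694), 2 (0.0824) or 3 (0.0652). The 4 measured zinc finger genes between Rsl1 and Zfp429 were not called, and Zfp458 among them had a log2 difference of -1.05. On chromosome 17 the run held Zfp994 and Zfp40, which increased, and Zfp945, which decreased at its brightest probe set. The run rests on Zfp945, at rank 100 among measured genes, because Zfp994 and Zfp40 stand at ranks 95 and 101. Zfp945 kept its call in 3 of the 9 fits without an array, lost it with only the 6 arrays compared, and rose at another probe set. Zfp994 was at 6.77, 6.88 and 6.83 in control and 21.5, 23.6 and 21.6 in the double knockout (log2 difference 1.70, adjusted p = 0.000894), and Zfp40 was at 6.67, 7.52 and 7.99 and 15.8, 20.4 and 14.3 (log2 difference 1.17, adjusted p = 0.0053).

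The promoters of Rsl1 and Zfp429 share much of their sequence, and both are shown because the 2 genes are neighbours in this run and both rose. Whether a probe set for one also reads the other was not tested. Capitals mark their longest shared stretch, 61 bases that begin 113 bases before the start in both, in sequences from RefSeq (GRCm38.p6).
Rsl1 (chr13:67172932-67173231, plus strand): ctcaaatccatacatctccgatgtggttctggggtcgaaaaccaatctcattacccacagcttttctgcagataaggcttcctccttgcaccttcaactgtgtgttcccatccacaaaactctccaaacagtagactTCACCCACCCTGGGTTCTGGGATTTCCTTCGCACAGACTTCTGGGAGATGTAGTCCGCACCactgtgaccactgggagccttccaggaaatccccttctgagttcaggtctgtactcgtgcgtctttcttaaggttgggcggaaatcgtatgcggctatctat
Zfp429 (chr13:67399718-67400017, minus strand): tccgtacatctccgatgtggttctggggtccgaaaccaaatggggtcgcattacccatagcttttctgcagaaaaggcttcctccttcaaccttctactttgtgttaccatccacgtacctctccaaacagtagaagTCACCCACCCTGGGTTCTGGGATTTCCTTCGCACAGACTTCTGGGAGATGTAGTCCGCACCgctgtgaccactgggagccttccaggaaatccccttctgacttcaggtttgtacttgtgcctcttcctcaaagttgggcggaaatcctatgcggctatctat
Aligned at the start without gaps, 82.3% of the 300 bases were identical, against 29.0% for Rsl1 and Zfp874a and 26.7% for Zfp429 and Zfp874a.

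Genes whose symbol begins with Zfp gave 5 increases and 2 decreases among 336 measured, or 2.08%, against 0.407% of all genes. They include Zfp429, Zfp874a, Zfp994, Zfp945 and Zfp40 of the runs on chromosomes 13 and 17. Zfp945 is counted as decreased by its brightest probe set, and another of its probe sets rose. The Trim genes gave 3 increases among 58, all from the run on chromosome 7. H2- genes gave 1 increase among 23, Slc genes 1 decrease among 347, and Gzm, Klr, Serpin, Krt, Col and Olfr genes none. Chromosome 13 held 10 called genes of 702 placed there (1.43%), chromosome 8 held 8 of 932 (0.858%), chromosome 17 held 7 of 834 (0.839%) and chromosome 7 held 10 of 1413 (0.708%), against 74 of 18032 placed on all chromosomes (0.41%). At the brightest probe set no called gene was found on chromosomes 6 and 16, with 992 and 593 genes. On chromosome 6, 4 genes were called at another probe set. The deleted genes and the Cre locus were looked at in the same way. Among the 20 measured genes on each side of Errfi1 on chromosome 4, Erbb2 on chromosome 11 and Pgr on chromosome 9, none of the 40 was called in limma at any probe set, and 3, 2 and 0 had an unadjusted p under 0.05, against 7.95% of all genes. The count of runs was 1, the one on the X chromosome, when each gene had to be within 2 measured genes of the next, and 6 when it could be within 10.

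Among the other large increases, Tmem267, a membrane protein gene on chromosome 13, was at 5.48, 5.42 and 4.96 in control, 4.32, 5.88 and 4.34 in Mig-6 d/d and 40.4, 42.2 and 45.7 in the double knockout. It had 1 probe set, which rose by 3.02 ± 0.13 on the log2 scale (limma, adjusted p = 1.1e-05) from control signals below the median of all values. Its neighbour 4833420G17Rik was called at 3 of 5 probe sets, the brightest of which was at 84.4, 57.2 and 98.3 in control and 202, 247 and 246 in the double knockout (log2 difference 1.56, adjusted p = 0.00527). Paip1, which stands next to them and encodes a partner of the poly(A)-binding protein in translation, fell at 2 of its 4 probe sets. Fut10, a fucosyltransferase gene, was at 8.41, 7.24 and 9.35 and 29.03, 32.6 and 25.5 (log2 difference 1.80, adjusted p = 0.000293). Myo7a, an unconventional myosin known from hair cells of the ear, was at 8.12, 7.27 and 6.77 and 31.1, 24.7 and 19.6 (log2 difference 1.75, adjusted p = 0.0053). Noct, the rhythmically expressed phosphatase nocturnin, was at 35.3, 24.6 and 21.5, with Mig-6 d/d at 45.9, 51.2 and 37.8 and the double knockout at 70.9, 88.01 and 78.6 (log2 difference 1.57, adjusted p = 0.00534). For Noct the Mig-6 d/d arrays lay between the other two groups, whereas for Fut10 and Myo7a they lay at 8.4 to 10.2 and 7.5 to 12.02, near control.

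Some of the largest increases were not called without single arrays. Taf15, an RNA-binding protein gene of the FET family, was at 3.28, 7.51 and 3.54 in control and 20.1, 32.6 and 31.7 in the double knockout (log2 difference 2.63 ± 0.43, adjusted p = 0.0354). Its call was lost without control replicate 1 (adjusted p = 0.11) or 3 (0.129), without Mig-6 d/d replicate 2 (0.057), and likewise when double-knockout replicate 1 (0.0775), 2 (0.141) or 3 (0.151) was left out. Rec8, a cohesin subunit of meiosis, was at 5.92, 4.64 and 8.43 and 16.04, 23.2 and 14.7 (log2 difference 1.52, adjusted p = 0.036), and was not called without control replicate 1 (0.108) or 2 (0.0982), without Mig-6 d/d replicate 1 (0.0754), or after leaving out double-knockout replicate 1 (0.109), 2 (0.129) or 3 (0.0816). The remaining increased genes ran from Cfap69, with a log2 difference of 0.63, to Trim30d. Among them Zfp532 (log2 difference 1.09 ± 0.11) had control at 70.6 to 77.6, Mig-6 d/d at 51.5 to 63.1 and the double knockout at 152 to 172. Zfp532, Cfap69 and the neighbours named in the runs were chosen after their values were seen.

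**Figure D3:**
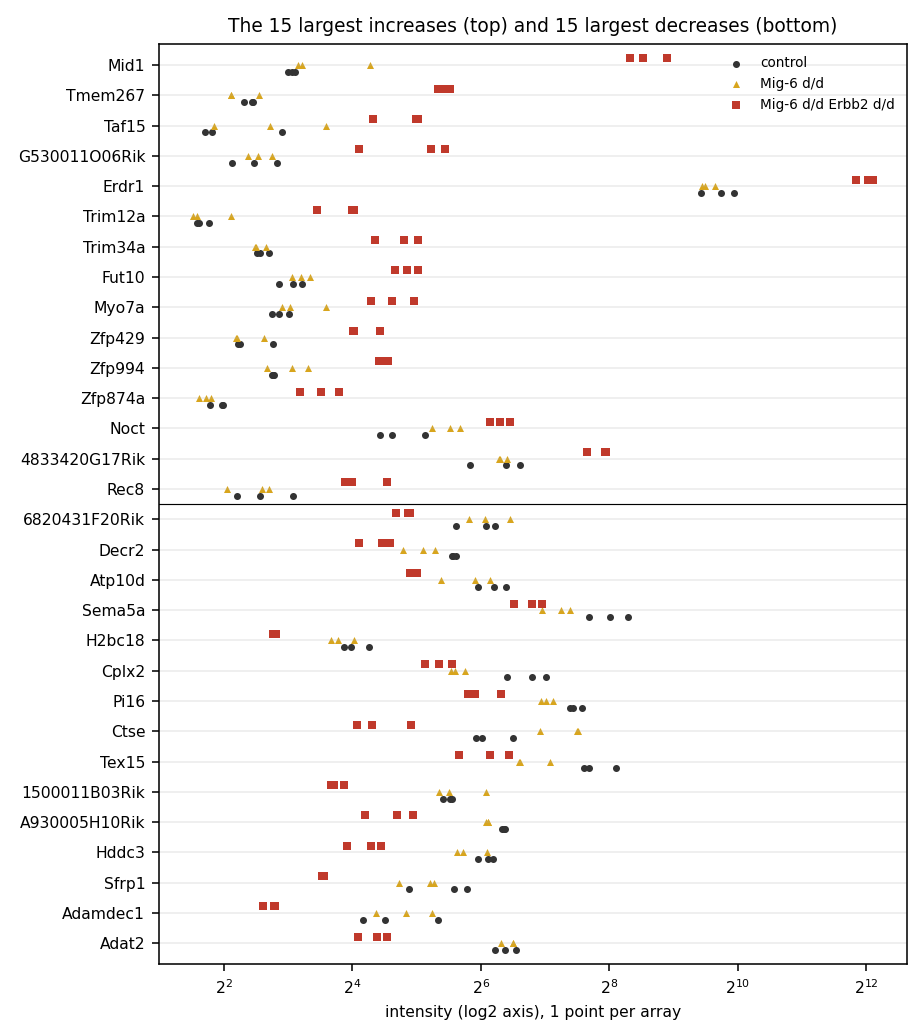
Intensity on a log2 axis in every array for the 15 genes with the largest called increases (top) and the 15 with the largest called decreases (bottom), with control as black circles, Mig-6 d/d as yellow triangles and the double knockout as red squares. For Mid1 the double-knockout arrays lie between 320.4 and 477.9 and all other arrays below 20; for Ctse the 3 groups are separate, with Mig-6 d/d highest and the double knockout lowest.

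The largest decrease was that of Adat2, the catalytic subunit of the tRNA adenosine deaminase, which was at 83.05, 74.7 and 93.5 in control, 80.1, 90.9 and 90.9 in Mig-6 d/d and 17.1, 23.3 and 20.96 in the double knockout. The decrease was -2.04 ± 0.13 on the log2 scale (limma, adjusted p = 0.000121), the only one of more than 4-fold among genes at their brightest probe set, and Adat2 had 1 probe set. Hddc3, a hydrolase gene of the HD domain family, was at 73.01, 62.2 and 69.3 in control and 21.8, 19.6 and 15.1 in the double knockout (log2 difference -1.87 ± 0.16, adjusted p = 0.000931). Its second probe set read 5 to 6 units in both groups. Tex15, a gene known from male meiosis, was at 195, 276 and 207 in control, 97.3, 135 and 98.3 in Mig-6 d/d and 70.6, 86.6 and 50.5 in the double knockout (log2 difference -1.72, adjusted p = 0.00798).

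Ctse encodes cathepsin E, an aspartic protease, and stood in both the list of progesterone-responsive genes and that of matrix proteins and proteases. It was at 90.9, 65.2 and 60.96 in control, 122, 182 and 181 in Mig-6 d/d and 16.9, 30.2 and 19.9 in the double knockout. The 3 groups were separate, with Mig-6 d/d highest. The decrease against control was -1.72 ± 0.24 (adjusted p = 0.016), and the difference from Mig-6 d/d was -2.87 (adjusted p = 0.000536). The call against control was lost without control replicate 1 (adjusted p = 0.0572) or double-knockout replicate 1 (0.0705) or 3 (0.0816), and the second Ctse probe set overlapped between the groups, at 31.1 to 40.2 and 21.2 to 43.4 (adjusted p = 0.923). Adamdec1, a metalloprotease gene of intestinal macrophages and stroma, was at 17.9, 40.2 and 22.9 in control and 6.98, 6.88 and 6.11 in the double knockout (log2 difference -1.94, adjusted p = 0.0192). It was not called without control replicate 3 (0.0517) or double-knockout replicate 1 (0.0785), 2 (0.0747) or 3 (0.093). Pi16, a peptidase inhibitor gene of fibroblasts, was at 172, 167 and 192, with Mig-6 d/d at 122, 139 and 129.9 and the double knockout at 79.3, 60.1 and 55.6 (log2 difference -1.46 ± 0.14, adjusted p = 0.00142).

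Sfrp1, a secreted antagonist of WNT ligands, was at 47.9, 55.1 and 29.4 in control and 11.6, 11.8 and 11.5 in the double knockout at its brightest probe set (log2 difference -1.87 ± 0.22, adjusted p = 0.0053). This was 1 of 5 probe sets, and the other 4 had log2 differences of -0.53, 0.29, -0.37 and 0.18 and were not called. With the mean over the 5 in place of the brightest, the adjusted p was 0.569. Cplx2, a complexin of synaptic vesicle release, was at 111, 129.5 and 84.9 in control, 46.5, 54.3 and 48.3 in Mig-6 d/d and 40.9, 35.04 and 47.2 in the double knockout (log2 difference -1.39, adjusted p = 0.00534). At this probe set both knockout groups lay below control, and the log2 difference between them was -0.28 (adjusted p = 0.39). The other two Cplx2 probe sets overlapped between control and double knockout (-0.16 and -0.07), and the mean over the 3 was -0.54 (adjusted p = 0.402). Sema5a, a guidance cue of the semaphorin family, showed the same order at its brightest probe set, with 205 to 313 in control, 125 to 168 in Mig-6 d/d and 91.8 to 125 in the double knockout (log2 difference against control -1.24, adjusted p = 0.0177, and against Mig-6 d/d -0.44, adjusted p = 0.19). Its call was lost without control replicate 1 (0.0621) or 3 (0.0533) or double-knockout replicate 1 (0.0786) or 2 (0.0673), and with only the 6 arrays compared (0.0551). The mean over its 4 probe sets was -0.31 (adjusted p = 0.483).

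H2bc18, a histone H2B gene, was at 15.8, 14.6 and 19.2 in control and 6.84, 7.03 and 6.87 in the double knockout (log2 difference -1.25, adjusted p = 0.00291). Decr2, the peroxisomal dienoyl-CoA reductase, was at 46.9, 49.3 and 47.3 and 21.96, 24.2 and 17.3 (log2 difference -1.19, adjusted p = 0.00917). A930005H10Rik was at 80.7, 83.5 and 82.6 and 30.7, 18.3 and 26.1 (log2 difference -1.75, adjusted p = 0.0014). These 3 kept their call without each of the 9 arrays. Atp10d, a phospholipid-transporting ATPase gene, and 6820431F20Rik had log2 differences of -1.23 (adjusted p = 0.0212) and -1.16 (adjusted p = 0.0324). Atp10d was not called without control replicate 2 (0.0676) or 3 (0.078) or without any 1 of the 3 double-knockout arrays (0.0838, 0.0844 and 0.0993), and 6820431F20Rik without control replicate 1 (0.102) or 3 (0.12), without Mig-6 d/d replicate 1 (0.0731) or once any 1 of the 3 double-knockout arrays (0.105, 0.101 and 0.146) was left out. Nedd4, the founding member of its ubiquitin ligase family, was the brightest decreased gene, at 2255 to 2755 in control and 1236 to 1675 in the double knockout (log2 difference -0.81, adjusted p = 0.0419), and kept its call without double-knockout replicate 2 but lost it without any other array (adjusted p = 0.0595 to 0.163 in the other 8 fits).

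The 4 genes Adi1, Zfp945, Prxl2c and 1500011B03Rik were called in opposite directions by their own probe sets. Where in the transcripts these probe sets lie was not worked out. Adi1, an enzyme of methionine salvage, was read by 3 probe sets. Its brightest fell from 246, 185 and 224 to 91.4, 125 and 104 (log2 difference -1.03, adjusted p = 0.0175), the next rose from 71.7, 60.5 and 73.03 to 116, 121 and 133 (0.85, adjusted p = 0.0188) and the dimmest in control rose from 17.5, 14.9 and 22.1 to 119.5, 136 and 116 (2.78, adjusted p = 0.000117). Zfp945 had a probe set that fell from 33.02, 25.5 and 37.9 to 17.5, 17.2 and 17.1 and another that rose from 7.25, 9.01 and 9.04 to 28.1, 29.9 and 25.6 (adjusted p = 0.0248 and 0.00186). Prxl2c, a peroxiredoxin-like gene, rose from 89.2, 79.8 and 68.6 to 159, 148 and 170.1 at one (log2 difference 1.01) and fell from 22.01, 23.2 and 23.6 to 13.6, 10.1 and 8.66 at the other (-1.11). 1500011B03Rik fell from 46.02, 42.7 and 46.9 to 14.7, 12.8 and 13.1 at one (-1.74) and rose from 18.98, 22.02 and 19.5 to 31.7, 29.8 and 32.2 at the other (0.63). For these 4 genes no single direction of expression can be given. Averaged over their probe sets, the first 3 turned sign, to 0.87, 0.21 and -0.051.

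Other called genes also had probe sets that were not called with the brightest. Of the 74 called genes 35 had more than 1 probe set, and of their 66 other probe sets 5 were called the same way, 5 the opposite way and 56 not at all. Of these 56, 35 had a 95% interval within 1.5-fold and 25 had a mean above the median of all probe sets. With the mean over probe sets the calls of Taf15 (log2 difference 1.23, adjusted p = 0.126), Ctse (-1.02, 0.0807) and Nedd4 (-0.43, 0.184) were also lost, and Zfp40 (0.57) fell under 1.5-fold. A further 48 genes were called only at a probe set that was not their brightest. Ccnd1, cyclin D1 of the G1 phase, was one of them, with 171, 181 and 170.3 in control and 75.7, 46.8 and 48.2 in the double knockout at a probe set that fell by 1.65 on the log2 scale (adjusted p = 0.0044). Its brighter probe sets had log2 differences of -0.44 (adjusted p = 0.442) and -0.12 (0.935). Paip1 fell at 2 probe sets, from 135, 68.3 and 95.9 to 16.4, 18.6 and 17.5 and from 77.8, 50.9 and 49.9 to 8.43, 8.42 and 9.11, while its brightest, at 75.5 to 114 and 73.8 to 82.7, was not called. Ywhaz, a 14-3-3 adaptor gene, fell at 3 of 7 probe sets, and its brightest had a log2 difference of -0.67 (adjusted p = 0.0557). Paip1, Ywhaz, Adi1, Prxl2c and Nedd4 were chosen after their values were seen.

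**Figure D4:**
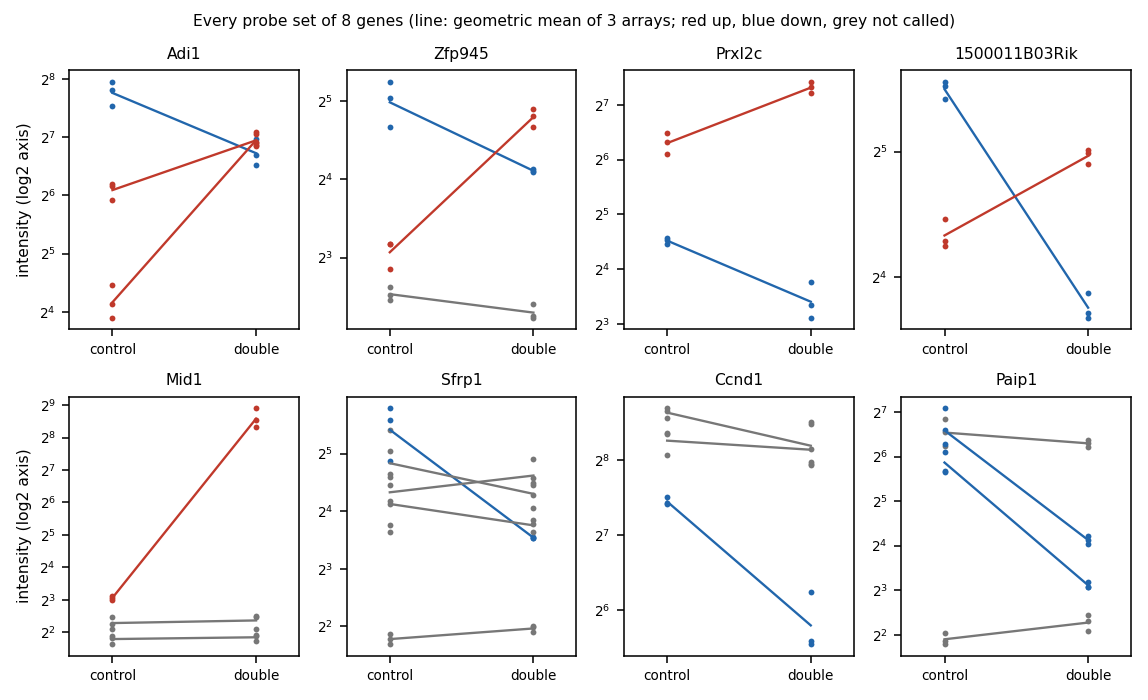
Intensity on a log2 axis in the 3 control and 3 double-knockout arrays for every probe set of 8 genes, with lines joining the geometric means, red where the probe set increased, blue where it decreased and grey where it was not called. In the upper row probe sets of 1 gene cross or diverge; in the lower row some probe sets changed and others of the same gene did not pass the test.

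The pathway that the 2 deletions target was described with a list of ERBB receptors, ligands and Mig-6, of which 15 of 16 were measured and 0 called, with 6, the deleted Errfi1 and Erbb2 among them, at an unadjusted p under 0.05 in limma (7.95% of all genes) and a median log2 difference of -0.17 against 0.01 over all genes. Beside Errfi1 and Erbb2, Tgfa, a ligand of Egfr, was at 28.6, 29.2 and 39.9 in control and 27.9, 25.6 and 22.1 in the double knockout (log2 difference -0.36, adjusted p = 0.573), and Hbegf, the heparin-binding ligand at the site of embryo attachment, had a log2 difference of -0.69 (adjusted p = 0.521). Of 26 measured genes of ERK output and feedback 0 were called, 3 had an unadjusted p under 0.05, the median was -0.04 and 15 had a 95% interval within 1.5-fold. The widest differences in that list ran from -0.44, which was Ccnd1, to 0.50.

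Lists of the progesterone and estrogen response held 1 called gene, against 0.407% of all genes called. Of 23 measured progesterone-responsive genes it was Ctse, and the median was 0.09. Of 14 steroid receptors and cofactors and 18 genes of the estrogen-responsive epithelium 0 were called, each list with 1 at an unadjusted p under 0.05, and the medians were -0.12 and -0.02. Ltf, lactotransferrin of the epithelium, was at 73.8, 81.5 and 279 in control, 1797, 1477 and 2124 in Mig-6 d/d and 43.99, 33.3 and 369 in the double knockout. One array of control and 1 of the double knockout (replicate 3 of each) stood above the other two of its group, and the difference had a 95% interval of -2.33 to 1.23 on the log2 scale. Clca1, a secreted regulator of chloride channels, was at 24.3, 7.37 and 133, 2119, 551 and 1046 and 8.68, 10.3 and 333 in the same order of groups. Replicate 3 was again the highest in control and in the double knockout. Muc1, the cell surface mucin of the lumen, was at 32.7, 30.7 and 76.6 and 33.9, 36.3 and 152 (95% interval -1.09 to 1.94). For these 3 genes the spread between arrays left wide intervals. The log2 difference from Mig-6 d/d was -4.45 for Ltf (adjusted p = 0.0118, called), -5.11 for Clca1 (0.0539) and -1.90 for Muc1 (0.139). In that second comparison 7.48% of all genes were called. Klf15, a progesterone-induced factor, and Klf4, a factor of epithelial differentiation, had log2 differences against control of -0.01 (95% interval -0.34 to 0.32) and 0.18 (95% interval -0.50 to 0.86).

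Genes of DNA replication mark dividing cells. Of 23 replication licensing genes 0 were called, the median log2 difference was 0.00 and 17 had a 95% interval within 1.5-fold. For 28 DNA replication genes the median was 0.05 with 23 intervals within 1.5-fold, and for 22 genes of mitosis it was -0.09 with 12. The helicase subunits Mcm2, Mcm4 and Mcm6 had log2 differences of 0.02 ± 0.17, -0.00 ± 0.16 and -0.12 ± 0.13, and their control and double-knockout arrays overlapped. Mcm3 was at 142, 73.9 and 76.1 in control and 119.7, 163 and 130.1 in the double knockout (log2 difference 0.56, adjusted p = 0.575), and was called as increased without control replicate 1 (0.86, adjusted p = 0.044). Mcm5 differed by 0.28 ± 0.26. Pcna, the sliding clamp, and Fen1, a flap nuclease, differed by 0.05 ± 0.15 and 0.03 ± 0.10. Hells, a chromatin remodeller of dividing cells, was at 97.8, 49.04 and 60.6 in control, 184, 191 and 193 in Mig-6 d/d and 53.3, 77.01 and 61.8 in the double knockout, which overlapped control and lay below Mig-6 d/d (log2 difference from Mig-6 d/d -1.58, adjusted p = 0.00476). Mki67, the proliferation marker Ki-67, differed from control by -0.14 ± 0.16. In Mig-6 d/d Mki67 was not raised either, at 269, 307 and 343 against 346, 316 and 356 in control.

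The WNT pathway list had 1 called gene, Sfrp1, among 32 measured, with a median of -0.21 and 10 members at an unadjusted p under 0.05 (7.95% of all genes). On the double-knockout arrays the median of the list lay between -0.30 and -0.13 relative to the control mean, and on the control arrays between -0.01 and 0.04. Such ranges did not overlap for 4 of the 40 lists, the others being those of ERBB receptors and ligands, implantation and decidualization, and glycolysis and hypoxia. Arrays of the groups did not overlap for 11.8% of single genes, a similar share, so this separation is no result about these lists. Lgr5, a receptor of R-spondins in stem cells and glands, was at 11.99, 12.6 and 48.9 in control and 6.65, 5.48 and 5.65 in the double knockout (log2 difference -1.72, adjusted p = 0.255). Wnt4, a WNT ligand of stroma and decidua, was at 29.5, 36.7 and 86.9 and 20.01, 14.6 and 32.2 (log2 difference -1.11, adjusted p = 0.492). Neither passed the test. In the list of implantation and decidualization genes, which also holds Wnt4 and Hbegf, 0 of 26 measured were called, with a median of -0.07. Igfbp3 and Igf2r of the IGF list, in which 0 of 14 were called, had log2 differences of -0.81 (adjusted p = 0.115) and -0.57 (0.125). Igfbp3 was also lower in Mig-6 d/d, at 209, 162 and 205, with control at 319 to 400 and the double knockout at 158 to 236.

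Among the lists of immune genes and cells 1 gene was called. H2-M3, a class I molecule that presents formylated peptides, was at 28.8, 30.4 and 24.9 in control and 67.4, 47.9 and 56.4 in the double knockout (log2 difference 1.02, adjusted p = 0.0435), 1 of 18 measured MHC genes, whose median was -0.09. Its call was lost in 7 of the 9 fits without an array (adjusted p = 0.0639 to 0.163) and with each array centred on its median (0.0524). Of 23 natural killer cell markers 0 were called, 8 had an unadjusted p under 0.05 (7.95% of all genes), and the median was 0.21. Gzmb, granzyme B, was at 28.7, 27.1 and 9.04 in control, 13.1, 11.5 and 16.9 in Mig-6 d/d and 110.0, 52.4 and 67.95 in the double knockout (log2 difference 1.93, adjusted p = 0.126). Klra7, a receptor of the Ly49 family, was at 4.05, 3.62 and 3.35 and 13.1, 5.43 and 8.28 (log2 difference 1.19, adjusted p = 0.114) and was called without double-knockout replicate 2 (1.51, adjusted p = 0.0165). Their groups did not overlap, but 14 of the 23 markers had a mean below the median of all probe sets. The 15 macrophage markers, 14 of them brighter than that median, had a median of 0.30, with the list at -0.44 to 0.23 on the control arrays and -0.01 to 0.69 on the double-knockout arrays, which overlap.

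The tissue label was checked with the same lists. Of 16 smooth muscle and 18 stromal markers all were brighter than the median probe set, as were 20 of 21 markers of luminal and simple epithelium and 17 of 18 endothelial markers, while 2 of 17 embryo and oocyte markers and 3 of 17 of cornified epithelium were. The median log2 differences were -0.18 for luminal epithelium, -0.05 for glands, 0.09 for stroma, 0.17 for smooth muscle and -0.09 for endothelium. In each of them the range of the list over the double-knockout arrays overlapped that over the control arrays, and their part in the results above was not tested. Among glandular and luminal genes, Foxa2, a factor of the glands, differed by -0.73 (adjusted p = 0.269) and Cldn10, a tight junction protein, by -0.99 (0.14). Ovgp1, the oviductal glycoprotein, was at 31.3, 21.8 and 7.42 in control and 64.4, 70.1 and 52.4 in the double knockout (log2 difference 1.85, adjusted p = 0.442), while the median of the 14 ovary and oviduct markers was 0.09. Outside these groups, the clock-controlled factor Hlf was at 20.6, 22.98 and 20.2 in control and 15.4, 14.7 and 12.7 in the double knockout (log2 difference -0.58, adjusted p = 0.0841). In Mig-6 d/d Hlf was at 11.6, 11.1 and 13.2, also below every control array. Per3 differed by -0.96 (0.353), and 0 of 17 clock genes were called. Slc25a13, a mitochondrial carrier, and Cdkl1, a cyclin-dependent kinase-like gene, differed by -0.99 (adjusted p = 0.483) and 0.02 (0.998).

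**Figure D5:**
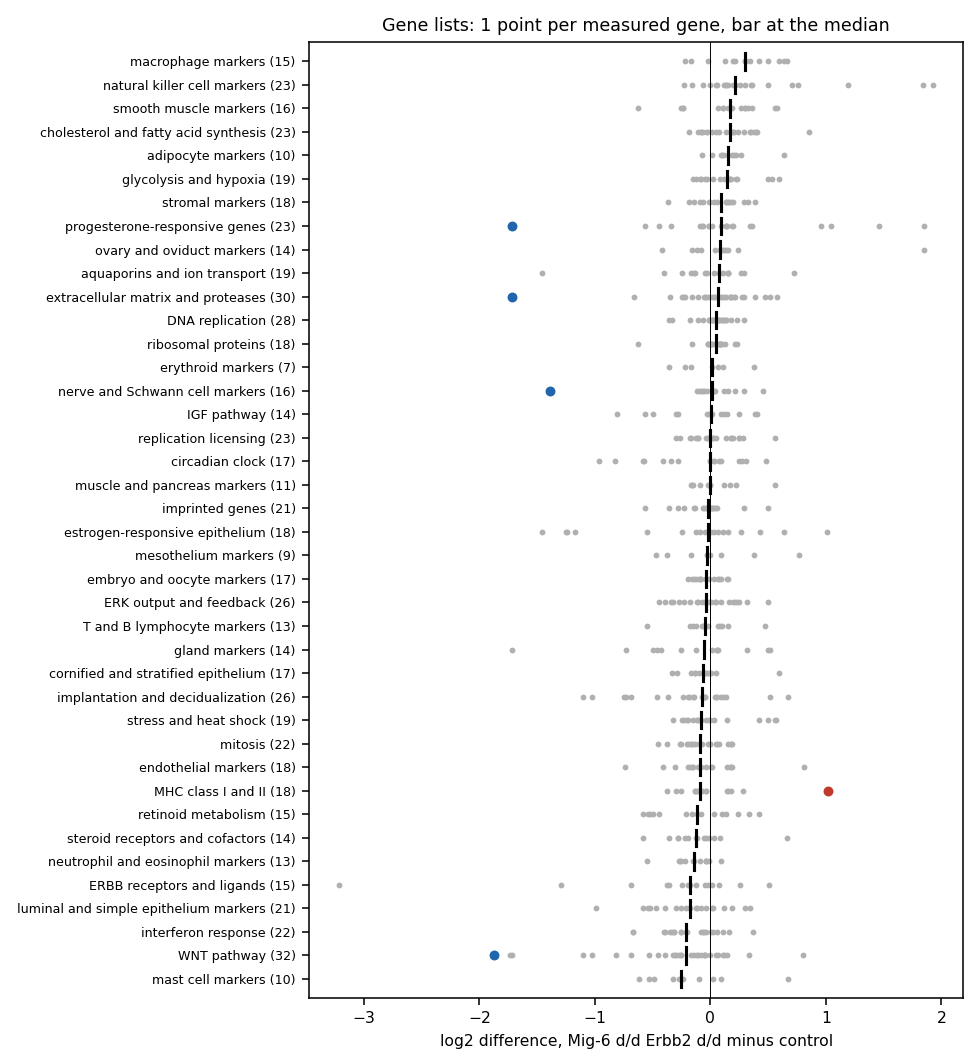
Log2 difference between double knockout and control for the measured members of 40 gene lists, 1 point per gene at its brightest probe set and a black bar at the list's median, ordered by that median. The medians lie between -0.26 and 0.30, Ctse (in 2 lists), Sfrp1 and Cplx2 were called as decreased (blue), H2-M3 as increased (red), and no other member was called.

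Of the 40 lists 35 had no called member, and the 5 with one were those of progesterone response, matrix and proteases, MHC, nerve and WNT. With 0.407% of all genes called, a list of this size without a called member is no result about that list. In the lists not yet named, the medians were 0.17 for 23 genes of cholesterol and fatty acid synthesis, 0.14 for 19 of glycolysis and hypoxia, 0.07 for 19 of ion and water transport, -0.08 for 19 of stress, -0.11 for 15 of retinoid metabolism, -0.02 for 21 imprinted genes and 0.05 for 18 ribosomal protein genes. Among cell type lists they were -0.26 for mast cells, -0.14 for neutrophils and eosinophils, -0.05 for lymphocytes, 0.02 for erythroid cells, 0.15 for adipocytes, -0.03 for mesothelium and -0.01 for skeletal muscle and pancreas. Cpa6, a carboxypeptidase in the mesothelium list, was at 3.93, 4.1 and 3.9 in control and 8.5, 5.85 and 6.29 in the double knockout (log2 difference 0.77, adjusted p = 0.0724).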

How the data were processed

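RNA of whole uteri was hybridised to GeneChip Mouse Genome 430 2.0 arrays. Per the labels, the deposited intensity values of the 9 arrays were made with RMA, and the methods name quantile normalization in Bioconductor. The tool versions are not given in the sources used here. The values are on a linear scale (2.11 to 11549, array medians 7.87 to 8.24) and were taken to log2 without a filter or further normalization. The series matrix holds 45037 probe sets, none of them an Affymetrix control. Names came from the platform annotation and RefSeq (GRCm38.p6, used for gene order and promoters): 34945 probe sets had 1 symbol, 932 several and 9160 none. All 9 arrays were fitted in limma 3.58.1 (R 4.3.3) with 1 mean per group and empirical Bayes moderation. Contrasts were double knockout against control and, for named genes, against Mig-6 d/d, with p-values adjusted by Benjamini-Hochberg over all probe sets, and a call needed an adjusted p under 0.05 and over 1.5-fold. A gene was read at its brightest probe set (highest mean over the 9 arrays). Detection calls and scan dates were not used here, and no batch was tested. No 2 arrays were identical, and their log2 values correlated at 0.988 to 0.994 within groups. Between control and double knockout they correlated at 0.986 to 0.992, a range that overlaps the first. Text named the receptors, the 15 largest called changes each way with arrays that do not overlap, up to 4 members of each list, genes of runs and genes the study names for the uterus at GD 3.5, which is not independent of these data. The members, lists and tests were chosen with earlier results of these data known, so lists got counts and medians and no test. The fitting was tested on simulated data. Alternatives were other normalizations, variance models, array weights, a replicate block, each array left out, other thresholds, other readings of a gene and an unpaired t-test. The methods name that test for 2 groups in general, and for the arrays a 2-sample comparison with a 1.5-fold limit.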

Additional observations from a re-analysis of the deposited data

How the results depend on the processing

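The 89 increased and 72 decreased probe sets stayed within 1.5 times these counts with a second quantile normalization, arrays centred on their medians, trended and robust variance, array weights, only bright probe sets, and without probe sets named _s_at or _x_at. They were 53 and 37 with only the 6 arrays compared and 58 and 40 with a 2-fold limit. Counted over genes they were 38 and 35 at the brightest probe set, with p-values adjusted over genes, and 27 and 25 when the probe sets of a gene were averaged. The unpaired t-test called 262 and 267 at an unadjusted p under 0.05 and 1.5-fold, and 0 and 0 after Benjamini-Hochberg. Without 1 array at a time the counts ran from 53 to 88 and from 30 to 68. Errfi1 (log2 difference -3.22) was called with only the 6 arrays compared (adjusted p = 0.0205) and without Mig-6 d/d replicate 3 (0.00627). The unpaired t-test without adjustment also called Errfi1 (0.00283), and its mean over probe sets was -2.44. It ran from -3.59 to -2.92 without 1 array at a time, and Erbb2 from -1.46 to -0.998. Erbb2 (-1.30) was called with trended and robust variance (0.0255) and by the unadjusted t-test (0.0208). The called genes Adi1, Zfp945 and Prxl2c turned sign in the mean over probe sets, to 0.87, 0.21 and -0.051. There was 1 run of neighbours within 2 measured genes instead of 4, and 6 both within 10 and, in a choice made after seeing the data, with genes called at any probe set. The cause of these shifts was not tested.

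The replicate numbers in the labels do not say what they mark. Same-numbered arrays deviated from their group means with correlations of -0.13 to 0.20, so the numbers were not taken to pair them, and not every array correlated best with its own number. With the replicate block 76 probe sets increased and 58 decreased, 117 of the 161 calls being shared, and Errfi1 (-3.22, adjusted p = 0.327) and Erbb2 (-1.30, 0.0567) were not called. Without the fold limit the counts were 91 and 74. In the limma fit of all arrays without this block, Errfi1 (-3.22, adjusted p = 0.303) and Erbb2 (-1.30, 0.0649) were not called either. In limma with only the 6 arrays compared, also 3 a group, Errfi1 was called (0.0205) and Erbb2 was not (0.177). Signals near the median of all values were not shown to be above background.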
